A study of Mus musculus with 10 samples.

Results

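Quadriceps muscle turns sugar and fat into ATP, and the genes described here carry both routes. The sugar route takes up glucose through Slc2a transporters, traps it with hexokinase, splits it in glycolysis to pyruvate and lactate, and stores or releases it as glycogen. The fat route binds fatty acids with Fabp proteins, carries them into mitochondria with Cpt enzymes and shortens them by beta-oxidation, which begins with the acyl-CoA dehydrogenases. Pyruvate dehydrogenase and the Pdk kinases that switch it off form the gate between both routes. Fast fibres rely more on the sugar route and slow fibres more on the fat route.

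Members were chosen by gene symbol alone, as features whose only symbol in the probe annotation begins with the family names of these routes or equals Aldoa, Aldoc, Tpi1 or Lpl. This gave 56 of the 7697 features tested, from 53 genes. The sugar list has 34 features of 31 genes, the fat list 17 features of 17 genes and the pyruvate gate 4 features (Pdha1, Pdha2, Pdk2 and Pdk4). The remaining feature is Pkmyt1, a kinase that inhibits Cdk1, which the rule takes in by the letters Pkm and which is no fuel gene. It is reported apart. Eno3, Hk1 and Hk2 have a pair of oligonucleotides each. No member was removed by a filter on low values, since none was applied.

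The mice were males of the inbred strains CBA/CaOlaHsd (CBA), C57Bl/10ScSnOlaHsd (BL10), C57Bl/6JOlaHsd (BL6), DBA/2OlaHsd (DBA) and BALB/cOlaHsd (BALB), 2 animals each. Mice came in at an age of 6 weeks and were 8 weeks old when killed, and the labels name no treatment. Every array set 1 animal labelled with Cy5 against 1 animal of another strain labelled with Cy3, and the values are log2 ratios of Cy5 over Cy3. Of the 10 arrays, 2 hold identical values under different labels (BL6 2 over CBA 1 and BALB 1 over CBA 2) and were left out. The 8 arrays used form a smaller chain of 3 arrays and a larger chain of 5 arrays with no animal in common. Both CBA animals then remain only in Cy5, so each CBA level rests on the estimated dye effect, whose median size over all features was 0.27 in log2 units. Duplicate spots of a feature differed with an SD of 0.196 to 0.462 within an array. Fitted levels below are log2 values relative to the mean of the 5 strains, and a ratio says nothing of how abundant a transcript is. In whole muscle, fewer cells of a type and less RNA per cell cannot be told apart.

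The upstream stretches of 4 genes are printed, for the 3 sugar genes and the fat gene on which much of the description below turns. Eno3 makes the muscle beta-enolase, Pygm the muscle glycogen phosphorylase, Ldha the lactate dehydrogenase subunit of fast muscle, and Fabp3 the fatty acid binding protein of heart and muscle. Each holds the 250 bases before a RefSeq transcription start on the GRCm38.p6 build, all on the plus strand, with capitals on every CANNTG. The RefSeq gene spans of Eno3 and Ldha begin upstream of the starts used here, and the stretches before those ends were not analysed here. This E-box is the core that the myogenic bHLH factors bind.
Eno3, chr11:70656926-70657175: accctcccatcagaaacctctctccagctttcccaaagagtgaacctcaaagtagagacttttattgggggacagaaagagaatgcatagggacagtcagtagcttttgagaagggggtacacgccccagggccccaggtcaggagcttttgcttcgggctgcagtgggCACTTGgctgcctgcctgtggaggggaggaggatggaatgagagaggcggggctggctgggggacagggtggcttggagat
Pygm, chr19:6384158-6384407: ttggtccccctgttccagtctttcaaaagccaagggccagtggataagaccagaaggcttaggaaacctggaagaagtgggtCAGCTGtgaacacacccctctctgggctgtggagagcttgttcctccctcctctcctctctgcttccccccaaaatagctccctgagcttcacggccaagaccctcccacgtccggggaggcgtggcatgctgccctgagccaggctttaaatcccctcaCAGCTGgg
Ldha, the first of 2 starts in the promoter table, chr7:46845554-46845803: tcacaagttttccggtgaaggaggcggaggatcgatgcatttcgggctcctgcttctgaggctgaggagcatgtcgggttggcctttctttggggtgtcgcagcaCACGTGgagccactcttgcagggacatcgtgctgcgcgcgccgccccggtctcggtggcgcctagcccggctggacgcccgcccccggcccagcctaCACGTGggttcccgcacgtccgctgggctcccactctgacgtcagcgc
Fabp3, chr4:130308488-130308737: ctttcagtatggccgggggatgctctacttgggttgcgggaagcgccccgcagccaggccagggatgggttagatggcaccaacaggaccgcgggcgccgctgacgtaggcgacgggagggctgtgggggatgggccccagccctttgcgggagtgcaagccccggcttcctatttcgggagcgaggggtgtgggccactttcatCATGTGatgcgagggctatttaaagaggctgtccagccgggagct
The E-box lay 81 bases before the Eno3 start and 45 bases before that of Fabp3. Pygm carried it at 168 and 8 bases, and Ldha at 145 and 48 bases, where both have the form CACGTG, a special case of CANNTG. The other Ldha start, which is not printed, carried it at 234 bases as CATTTG and at 79 bases as CACCTG, without CACGTG. The E-box, whose form is the same on both strands, was found in 66.2% of the 32851 promoters of this length in the table and in 30 of the 45 member genes listed there (66.7%). CACGTG was found in 6.02% of all promoters and in 4 of the 45 (8.89%). AGGTCA, the half-site of nuclear receptors, searched on both strands, was found in 14% of all and in 9 of the 45 (20%), and Eno3 carries it 114 bases before its start. These matches are a description of letters and not of binding.

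Few features of any kind passed the test between strains. At a false discovery rate (FDR) of 10% across all features, 1 of the 56 members was called between strains by limma's moderated F, and it was Pkmyt1 (adjusted p = 0.0561). Over all features 0.13% were called, so the absence of sugar, gate and fat features among the calls says nothing particular to them. At an unadjusted p of 0.05, 8 of 34 sugar members passed (23.5%), 1 of 17 fat members (5.88%) and 1 of 4 gate members (25%), beside 14% of all features. The median range between the highest and the lowest strain was 0.49 for the sugar list and 0.44 for the fat list, against 0.45 for all features.

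**Figure D1:**
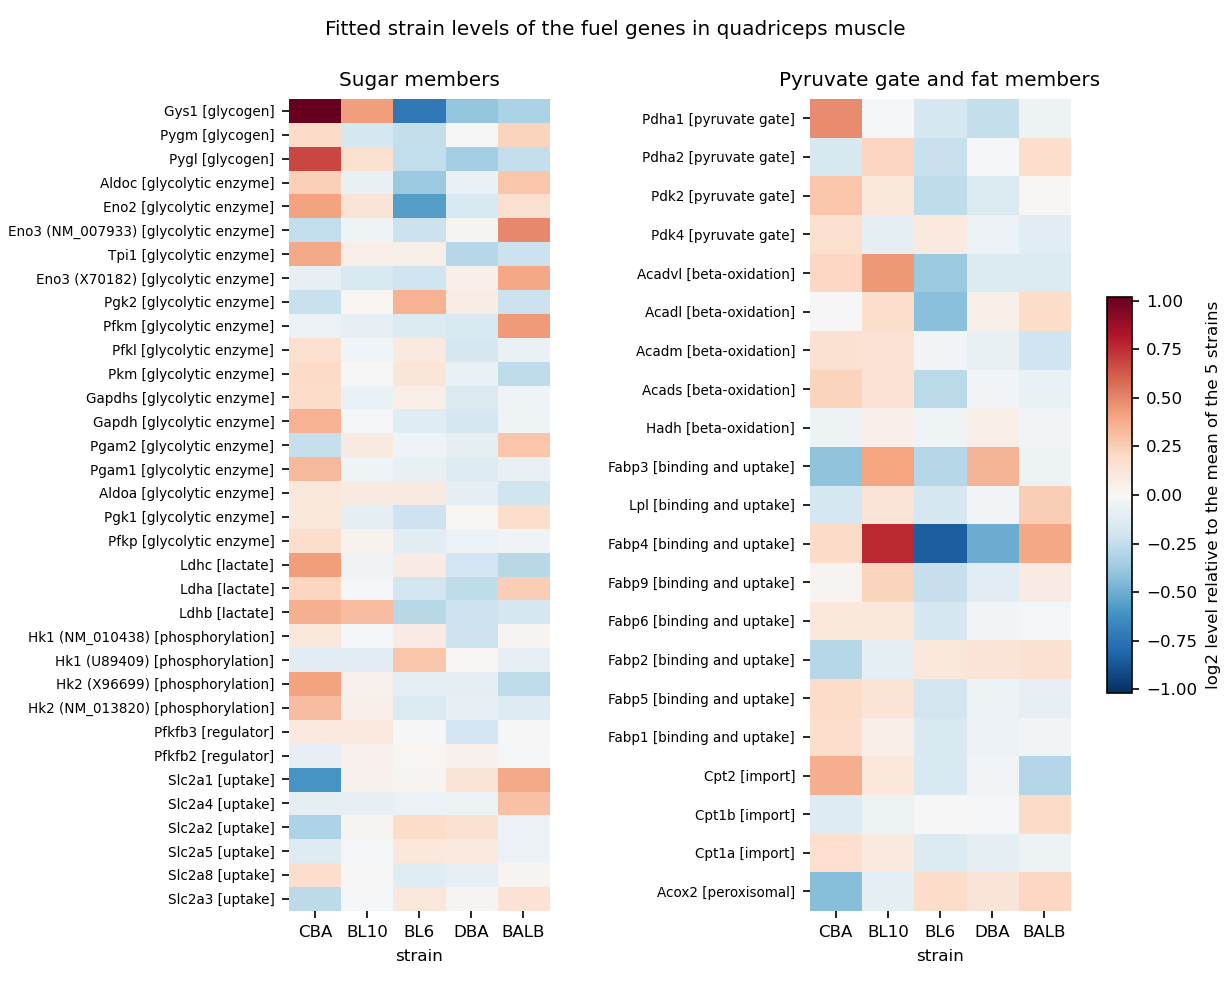
Fitted log2 levels of the sugar, gate and fat members (rows, with the role in brackets) in the 5 strains (columns), relative to the mean of the strains. Red is above and blue below that mean, and most cells lie within 0.5 of it, with Gys1 at 1.02 in CBA and Fabp4 at −0.84 in BL6 among the exceptions.

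The sugar members that passed at an unadjusted p of 0.05 were Aldoc, Gys1, Eno2, Slc2a1, Eno3 (NM_007933), Ldhc, Tpi1 and Ldha, with adjusted p from limma of 0.197 to 0.343. They did not share a strain pattern. Slc2a1, the transporter of basal glucose uptake, stood lowest in CBA at −0.60 and highest in BALB at 0.38. Ldhc, the testis form of lactate dehydrogenase, stood highest in CBA at 0.43 and lowest in BALB at −0.28. Its ratios were −1.03 (CBA 1 over BL10 1) and −0.78 (CBA 2 over BL10 2), and its fitted dye effect was −1.37. The high CBA level of Ldhc thus rests on that correction. Tpi1, triosephosphate isomerase, stood highest in CBA at 0.39 and lowest in DBA at −0.29. Its duplicate spots were 1.51 apart on the DBA 2 over BALB 1 array.

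Glycogen synthase, encoded by Gys1 (chr7:45434839-45456617), had the largest range of any sugar member. Its level was 1.02 (SE 0.22) in CBA, 0.43 (SE 0.12) in BL10, −0.32 (SE 0.14) in BALB, −0.40 (SE 0.12) in DBA and −0.73 (SE 0.15) in BL6, with 2 animals a strain. The moderated F gave an adjusted p of 0.206. The arrays themselves read −1.14 (DBA 2 over BALB 1), −0.36 (CBA 1 over BL10 1), 0.04 (BL10 1 over BALB 2), −0.08 (CBA 2 over BL10 2), −0.21 (DBA 1 over BL6 1), −0.12 (BL10 2 over DBA 1), −1.05 (BL6 1 over DBA 2) and −0.60 (BALB 2 over BL6 2). Only 1 of the 8 ratios lay above 0, and the fitted dye effect of Gys1 was −0.81, so that the high CBA level follows from ratios near 0 after a large dye correction. Its duplicate spots also disagreed, with −1.59 and 0.39 on the BALB 2 over BL6 2 array. The other glycogen members did not pass. Pygm ranged from −0.24 in BL6 to 0.23 in BALB (adjusted p = 0.414 from limma), and Pygl, the liver phosphorylase, from −0.36 in DBA to 0.68 in CBA (adjusted p = 0.438 from limma).

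BALB against BL6 was the pair of strains in which sugar members were called. Aldoc, Eno2 and Eno3 (NM_007933) were higher in BALB at an FDR of 10% by limma. They encode the brain-type aldolase C, the neuronal enolase gamma and the muscle enolase beta. The share over all features was 3.75% called higher in BALB and 0.767% called lower, 4.52% in either direction. No fat or gate member was called, and in the 9 other pairs and in each strain against the other 4 no sugar, gate or fat member was called. Over all features, those comparisons called 0.065% for BL10 and for BL6 against the other 4 and for BL10 against BL6 and DBA, 0.052% for BL10 against BALB, 0.039% for CBA against BL10, 0.013% for DBA against the other 4 and 0% otherwise.

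Eno3 (chr11:70653125-70662513) is the muscle enzyme among them and is measured by 2 oligonucleotides. NM_007933 read −0.21 (DBA 2 over BALB 1), 0.04 (CBA 1 over BL10 1), 0.09 (BL10 1 over BALB 2), 0.44 (CBA 2 over BL10 2), 0.83 (DBA 1 over BL6 1), 0.18 (BL10 2 over DBA 1), 0.30 (BL6 1 over DBA 2) and 1.08 (BALB 2 over BL6 2). X70182 read −0.29, 0.07, 0.01, 0.72, 0.80, −0.14, 0.20 and 0.79 in the same order. Both were highest where BL6 was the Cy3 partner and lowest where BALB 1 was the Cy3 partner. By limma, the log2 excess of BALB over BL6 was 0.71 for NM_007933 (SE 0.16, adjusted p = 0.0722) and 0.60 for X70182 (SE 0.20, adjusted p = 0.149). Duplicate spots were at most 0.163 apart for NM_007933 and 0.136 apart for X70182 on any array. The difference was 0.63 in the smaller chain and 0.80 in the larger for NM_007933, and 0.46 and 0.74 for X70182. Both chains use the same dye effect, fitted from these same arrays at 0.45 for NM_007933 and 0.33 for X70182. In the larger chain, the DBA 2 over BALB 1 and BL6 1 over DBA 2 ratios link BALB to BL6. They largely offset each other before correction, at −0.21 and 0.30 for NM_007933 and −0.29 and 0.20 for X70182. With the dye effect removed they were −0.65 and −0.15, and −0.61 and −0.13. The larger-chain differences thus rest mostly on that correction, and the chains are not independent estimates. Without BALB 1 the difference of NM_007933 was 0.45 and its adjusted p from limma 0.275, so the call depends on that animal, and it was also lost without BL10 1, BL10 2, BL6 2, CBA 1 or CBA 2, at 0.71 to 0.77.

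Eno2 read −0.48, 0.42, 0.14, 0.24, 0.61, 0.19, −0.25 and 0.69 on the arrays in that order, and BALB exceeded BL6 by 0.73 (SE 0.15, adjusted p = 0.0592 from limma). Aldoc read −0.98, −0.33, −0.86, −0.23, −0.34, −0.71, −0.87 and 0.12, and the difference was 0.66 (SE 0.13, adjusted p = 0.0592 from limma). Both differences were larger in the second of the duplicate spots. For Eno2 the difference was 0.17 from the first spots and 1.29 from the second, and on the DBA 2 over BALB 1 array the spots read 0.55 and −1.51. For Aldoc it was 0.39 and 0.94. With the first spots alone no sugar member was called and 3 features were called on the whole array, with the second alone 184. Without BALB 1, Eno2 was at 0.50 (adjusted p = 0.198 from limma) and Aldoc at 0.61 (adjusted p = 0.163 from limma). The call of Eno2 was also lost without BL6 2, at 0.79, and that of Aldoc without BL10 1, BL10 2, BL6 2, CBA 1 or CBA 2, at 0.55 to 0.69. Eno3 (NM_007933) gave 0.75 and 0.66. An unadjusted p under 0.05 from each spot alone was found for 2 of 34 sugar members (5.88%), both of them Eno3, for 0 of 17 fat members and for 7.74% of all features.

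**Figure D2:**
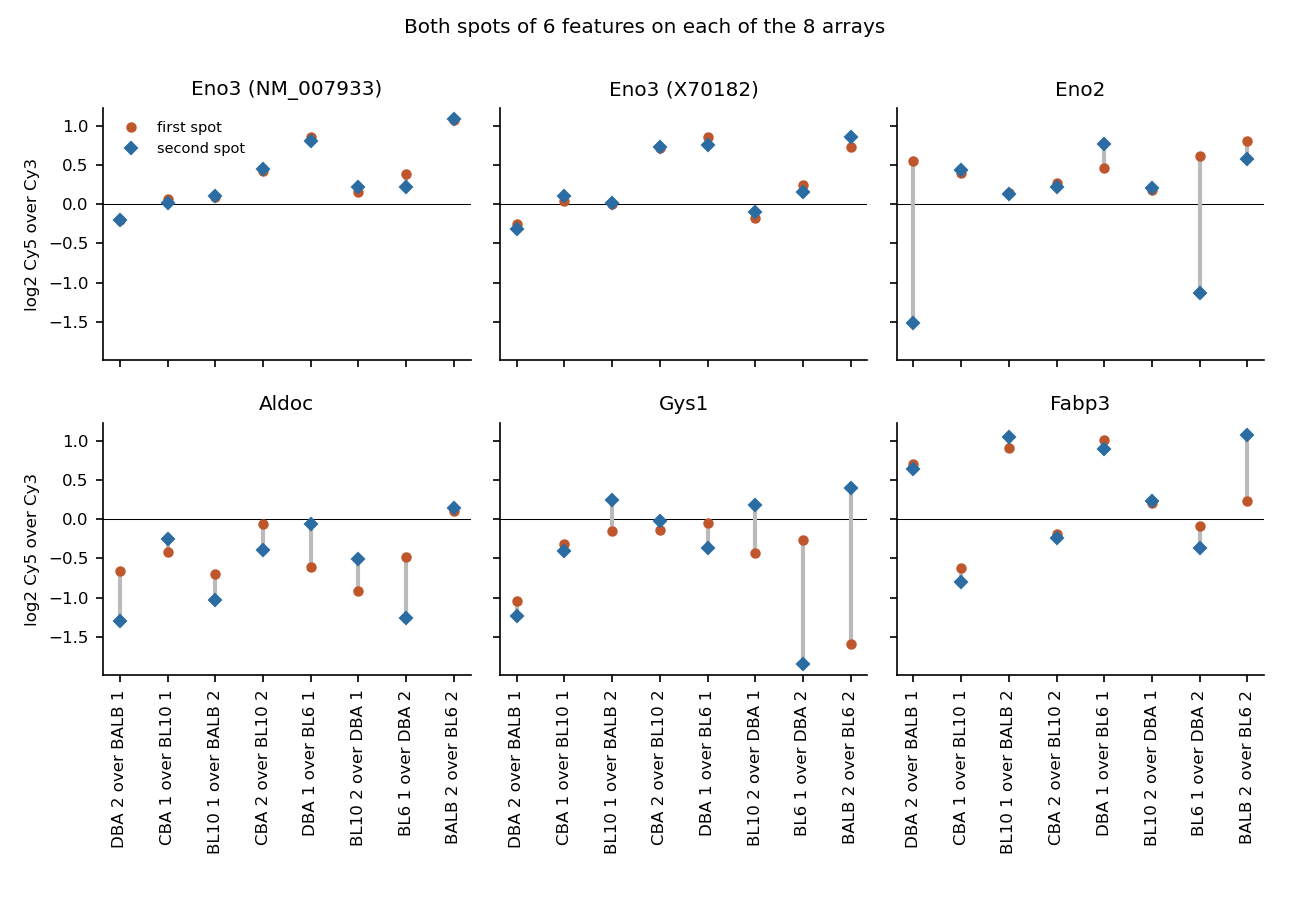
Log2 ratio of Cy5 over Cy3 of the first (circles) and second (diamonds) spot of 6 features on each of the 8 arrays, joined by a grey line. The spots of both Eno3 oligonucleotides lie close together on every array, while those of Eno2 are over 1 apart on 2 arrays and those of Gys1 on 2 arrays.

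Spots over 1 apart on at least 1 array were found for 17 of 55 members (30.9%) and for 16.3% of all features. Gapdh, glyceraldehyde phosphate dehydrogenase, is left out of that count because it is the mean of 160 spots of a control oligonucleotide. Those 160 spots had an SD of 0.160 to 0.319 on an array. Pgk1, phosphoglycerate kinase, showed the widest gap among the fuel genes, with spots at −1.91 and 1.14 on the BALB 2 over BL6 2 array.

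The forms of the sugar enzymes that skeletal muscle mainly uses were mostly higher in BALB than in BL6. Of these 16 features, 12 were higher in BALB than in BL6 (75%, against 42.5% of all features), with a median difference of 0.34 against −0.05 over all features. At an unadjusted p of 0.05, 7 were higher (43.8%, against 12.2% of all features) and 1 was lower (6.25%, against 9.78%). The 7 were both Eno3 features, Pfkm at 0.57 (phosphofructokinase of muscle), Pygm at 0.47, Ldha at 0.44, Gys1 at 0.41 and Slc2a4 at 0.36 (the insulin-responsive transporter). The first and the second spots gave Gys1 differences of opposite sign, −0.28 and 1.10, while the other 6 were above 0 from each spot. Pkm, pyruvate kinase of muscle, was at −0.38 (SE 0.16, adjusted p = 0.215 from limma), and its spots gave 0.09 and −0.84. Aldoa at −0.29 and Tpi1 at −0.28 also lay below 0 without passing. Without BALB 1, 9 of the 16 were higher in BALB. The other 18 sugar members had a median difference of −0.02, with 3 higher and 3 lower at an unadjusted p of 0.05. The lean of the 16 muscle forms was not particular to BALB. BL10 exceeded BL6 for 14 of them (87.5%, against 42.6% of all features) and CBA for 13 (81.2%, against 43.4%). BL6 was above DBA for 8 (50%, against 52.7%). Relative to the mean of the other 4 strains, 8 of the 16 were above 0 in BALB (50%, against 50.2%).

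In both chains of arrays, 10 of the 16 muscle forms were higher in BALB (62.5%, against 31.2% of all features), and 3 were lower in both (18.8%, against 43.3%). The chains share the fitted dye effect of each feature, so these counts are not independent replication. Pfkm gave 0.21 in the smaller chain and 0.81 in the larger, and Pygm 0.19 and 0.66. Pgk1 gave −0.28 and 0.81. Ldha, at 0.30 and 0.57, read −0.67 (DBA 2 over BALB 1), 0.32 (CBA 1 over BL10 1), −0.12 (BL10 1 over BALB 2), 0.28 (CBA 2 over BL10 2), 0.22 (DBA 1 over BL6 1), 0.20 (BL10 2 over DBA 1), 0.23 (BL6 1 over DBA 2) and 0.36 (BALB 2 over BL6 2). Its lowest ratio was the one with BALB 1 as the Cy3 partner.

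The remaining muscle forms did not pass at an unadjusted p of 0.05 in that pair. Hk2, the hexokinase that traps glucose in muscle, gave −0.17 by X96699 and 0.01 by NM_013820, and its levels were highest in CBA, at 0.41 and 0.31. Pgam2, the muscle phosphoglycerate mutase, was at 0.32, Gapdh at 0.07 and Ldhb, the lactate dehydrogenase subunit of oxidative muscle, at 0.11. Ldhb stood higher in CBA (0.36) and BL10 (0.31) than in the other strains, which lay between −0.29 and −0.17 (adjusted p = 0.462 from limma). Among forms used mainly elsewhere, Pgk2 of testis was at −0.58 (adjusted p = 0.153 from limma), and the transporters Slc2a2, Slc2a3, Slc2a5 and Slc2a8 and the regulators Pfkfb2 and Pfkfb3 had strain ranges of 0.13 to 0.50.

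**Figure D3:**
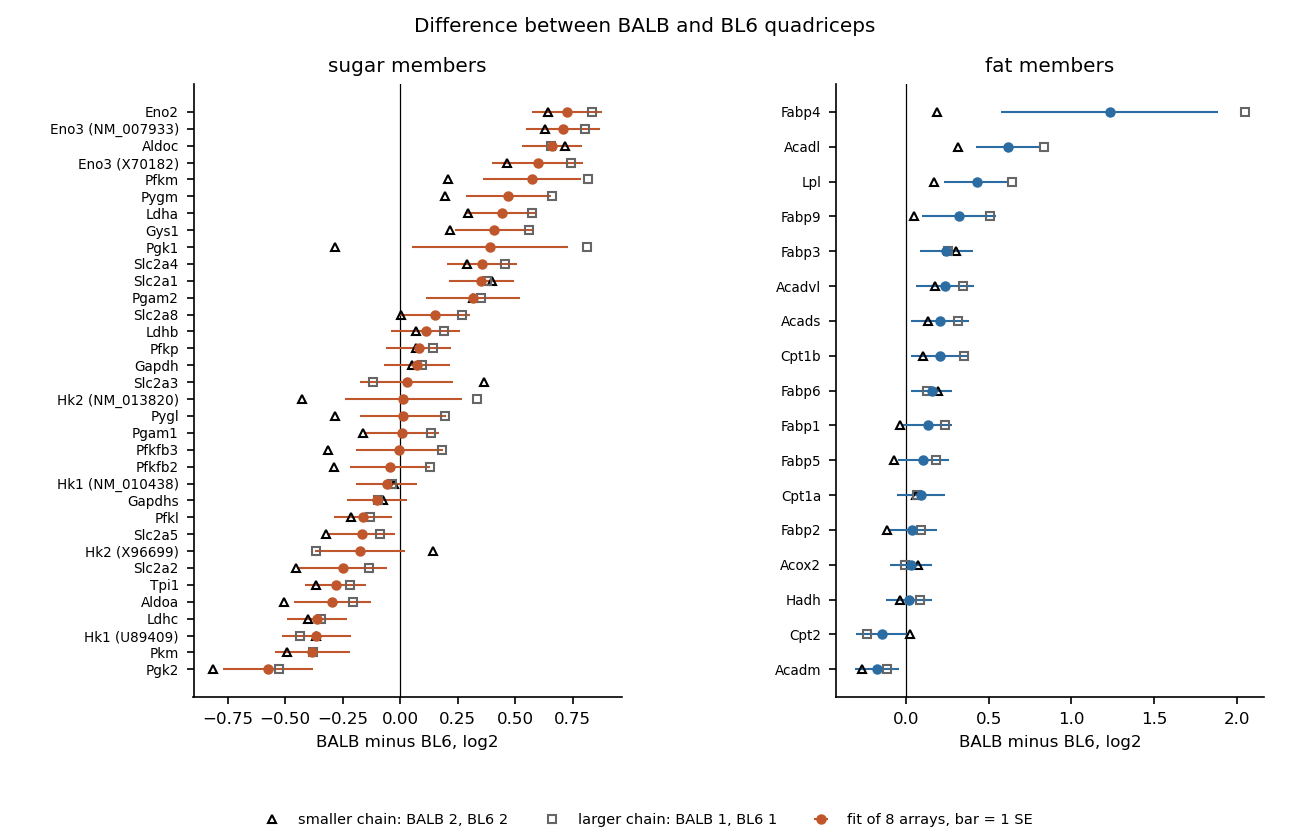
BALB minus BL6 on the log2 scale for each sugar (left) and fat (right) member, as the fit of all 8 arrays with 1 SE (filled circles) and within the smaller (triangles) and larger (squares) chain. The chains share the fitted dye effect of each member and are not independent estimates. Eno2, Eno3 and Aldoc head the sugar members at 0.60 to 0.73, and 15 of 17 fat members lie above 0.

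Other muscle transcripts also differed in this pair of strains. Of 5 skeletal muscle markers, 3 were higher in BALB at an unadjusted p of 0.05, beside 12.2% of all features, with a median difference of 0.56 and a range of −0.28 (Mb) to 1.14 (Tnnt3). Tnnt3, fast troponin T, and Acta1, skeletal actin, at 0.56, were called by limma with adjusted p of 0.0572 and 0.0669. The median marker level was 0.38 in BALB and −0.17 in BL6. Of 6 fast fibre markers, of which Tnnt3 is also among the 5 muscle markers, 3 passed higher, and of 5 slow fibre markers 1 did. The fast markers had a median difference of 0.36 and ran from −0.21 to 1.14, with Tnni2 and Actn3 below 0. For the slow markers the median was −0.10 and the range −0.22 to 0.42. Among these, Atp2a2, Tpm3, Tnni1 and Tnnt1 were below 0, and Tnnc1 was the one that passed. Among 3 fibroblast markers, Col1a1 was higher in BALB by 0.72 and Col3a1 by 1.14 (adjusted p = 0.0592 for both from limma). The part of these differences in the sugar result was not tested, and since ratios hold no absolute level, no marker can be called absent.

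No fat member was called in any comparison, and BL6 lay low across the fat list. Relative to the mean of the other 4 strains, 15 of 17 fat members were below 0 in BL6, with a median of −0.22, against 0.04 over all features. The share above 0 was 11.8% of the fat list and 55.7% of all features. BL6 was the lowest of the 5 strains for 9 of the 17 (52.9%, against 19.6% of all features) and the highest for 0. For sugar members BL6 was lowest for 10 of 34 (29.4%), with a median of −0.09. The 16 muscle sugar forms lay low in BL6 too, with 3 above 0 (18.8%) and a median of −0.18, beside −0.22 for the 9 muscle fat forms. The count of fat members below 0 in BL6 was 10 without BALB 1, the lowest of all alternatives, and 13 without BL6 1. The low BL6 level was weaker in 29 further fat features outside the list. Relative to the mean of the 5 strains, their median in BL6 was −0.08, beside −0.17 for the fat list and 0.03 for all features.

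BL10 lay high, with 14 of 17 fat members above 0 (82.4%, against 39.8% of all features) and a median of 0.16 against −0.04 over all features. The medians of the fat list were 0.13 in CBA, −0.03 in DBA and −0.03 in BALB. For the sugar list they were 0.21 in CBA, −0.01 in BL10, −0.11 in DBA and −0.04 in BALB. CBA was the highest strain for 18 of 34 sugar members (52.9%, against 29.2% of all features) and the lowest for 10 (29.4%, against 37.7%). On the arrays of CBA 1 and CBA 2, both in Cy5, the sugar median was −0.24 and −0.12 before the dye correction. The high CBA levels of the list thus rest on that correction. The sugar median minus the fat median was 0.08 in CBA, −0.17 in BL10, 0.13 in BL6, −0.08 in DBA and −0.01 in BALB. These differences have no test, and they change with the choice of members. For the muscle forms alone, the sugar and fat medians were −0.18 and −0.22 in BL6, 0.24 and −0.01 in CBA, and 0.08 and −0.06 in BALB.

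**Figure D4:**
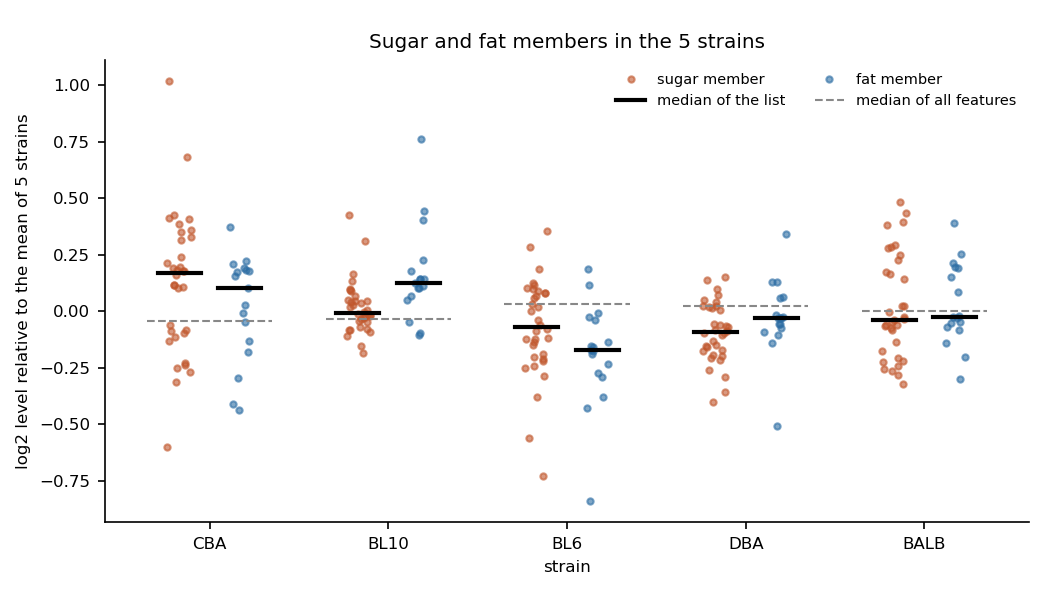
Fitted log2 levels of the 34 sugar members (brown) and 17 fat members (blue) in each strain, relative to the mean of the 5 strains, with the median of each list (black bars) and of all features (dashed lines). In BL6 2 of the 17 fat members lie above 0 (11.8%, against 55.7% of all features), and in BL10 14 do (82.4%, against 39.8%).

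The arrays that set DBA 1 over BL6 1 and BL6 1 over DBA 2 carry the same pair of strains with the dyes exchanged, so their mean difference is free of a dye effect. In it, 15 of 17 fat members were higher in DBA than in BL6 (88.2%, against 47.4% of all features), with a median of 0.19. Of the sugar members 19 of 34 were (55.9%), with a median of 0.04. Acadl, the long-chain acyl-CoA dehydrogenase, was 0.64 higher in DBA, Acads, the short-chain one, 0.26 and Acadvl, the very-long-chain one, 0.25, while Acadm, the medium-chain one, was at −0.00. BL6 1 is in both arrays, so this is a comparison of 1 BL6 animal with 2 DBA animals.

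Fabp3 (chr4:130308738-130315463) had the smallest p of any fuel gene between strains (adjusted p = 0.154 from limma). Its ratios were 0.67 (DBA 2 over BALB 1), −0.71 (CBA 1 over BL10 1), 0.98 (BL10 1 over BALB 2), −0.22 (CBA 2 over BL10 2), 0.95 (DBA 1 over BL6 1), 0.22 (BL10 2 over DBA 1), −0.23 (BL6 1 over DBA 2) and 0.65 (BALB 2 over BL6 2). DBA and BL10 read above CBA, BL6 and BALB on every array that paired them. The levels were 0.40 (SE 0.12) in BL10, 0.34 (SE 0.11) in DBA, −0.05 (SE 0.13) in BALB, −0.29 (SE 0.14) in BL6 and −0.41 (SE 0.20) in CBA. BL10 and DBA lay within 1 SE of each other, as did BL6 and CBA. DBA exceeded BL6 by 0.63 (SE 0.16, adjusted p = 0.361 from limma). Each spot alone gave an unadjusted p under 0.05 between strains for Fabp3, the 1 fat member of 17 to do so (5.88%). Among sugar members 2 of 34 did (5.88%), and over all features 4.74%.

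Beta-oxidation genes were lowest in BL6 for Acadvl, Acadl and Acads. Acadvl reached 0.44 in BL10, against −0.38 in BL6 (adjusted p = 0.361 from limma). Acadl was highest in BALB, at 0.19, with BL6 at −0.43 (adjusted p = 0.382 from limma), and those strains differed by 0.62 (SE 0.20, adjusted p = 0.137 from limma). Acads stood at 0.22 in CBA and −0.27 in BL6. Acadm and Hadh, which encodes the mitochondrial hydroxyacyl-CoA dehydrogenase, had ranges of 0.36 and 0.11. Among the Cpt enzymes of mitochondrial import, Cpt1b, the muscle form, ranged by 0.33 and Cpt2 by 0.67, from 0.37 in CBA to −0.30 in BALB. Acox2, a peroxisomal oxidase, stood lowest in CBA at −0.43. The binding proteins of other tissues, Fabp1, Fabp2, Fabp5, Fabp6 and Fabp9, had ranges of 0.29 to 0.46, and of these 5 all but Fabp2 were lowest in BL6.

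Fabp4, the adipocyte fatty acid binding protein, had the widest spread of array ratios of all members. It read −1.96 (DBA 2 over BALB 1), 0.60 (CBA 1 over BL10 1), 0.78 (BL10 1 over BALB 2), −1.25 (CBA 2 over BL10 2), 2.06 (DBA 1 over BL6 1), 1.21 (BL10 2 over DBA 1), 0.39 (BL6 1 over DBA 2) and 0.43 (BALB 2 over BL6 2). The lowest and the highest ratio are both in the larger chain and both involve DBA. The strain levels ran from 0.76 in BL10 to −0.84 in BL6 with SEs of 0.47 to 0.84, and the adjusted p of the moderated F from limma was 0.557. Its difference between BALB and BL6 was 0.19 in the smaller chain and 2.05 in the larger.

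The 7 adipocyte markers varied unequally over the arrays. Ratios ran from −2.99 to 2.65 for Fasn, fatty acid synthase, and from −2.20 to 3.02 for Scd1, stearoyl-CoA desaturase, but for Cidea only from −0.03 to 0.71 and for Lep, leptin, from 0.29 to 0.84. On the BALB 2 over BL6 2 array Fabp4 was at 0.43 and Fasn at −2.99. Of 7 adipocyte markers 2 passed at an unadjusted p of 0.05 between strains, Cidec and Car3 (28.6%, against 14% of all features). The median level of the 7 was 1.13 in CBA, 0.28 in BL10, −0.29 in BALB, −0.52 in BL6 and −0.55 in DBA. The markers did not share the CBA level, since Lep (−0.19), Adipoq (adiponectin, −0.04) and Cidea (−0.01) lay below 0 there. The arrays that hold CBA also differed, with Fasn at 2.65 (CBA 1 over BL10 1) and −1.57 (CBA 2 over BL10 2), and Scd1 at 3.02 and −1.25. Each sets a CBA animal against a different BL10 animal, so this gap cannot be assigned to either strain. Adipoq read between −1.02 and −0.41 on all arrays. Whether fat cells in the samples moved Fabp4 or Lpl was not tested. Lpl, the lipase that frees fatty acids at the vessel wall, was lowest in CBA, at −0.18, and highest in BALB, at 0.25, with an adjusted p from limma of 0.526.

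**Figure D5:**
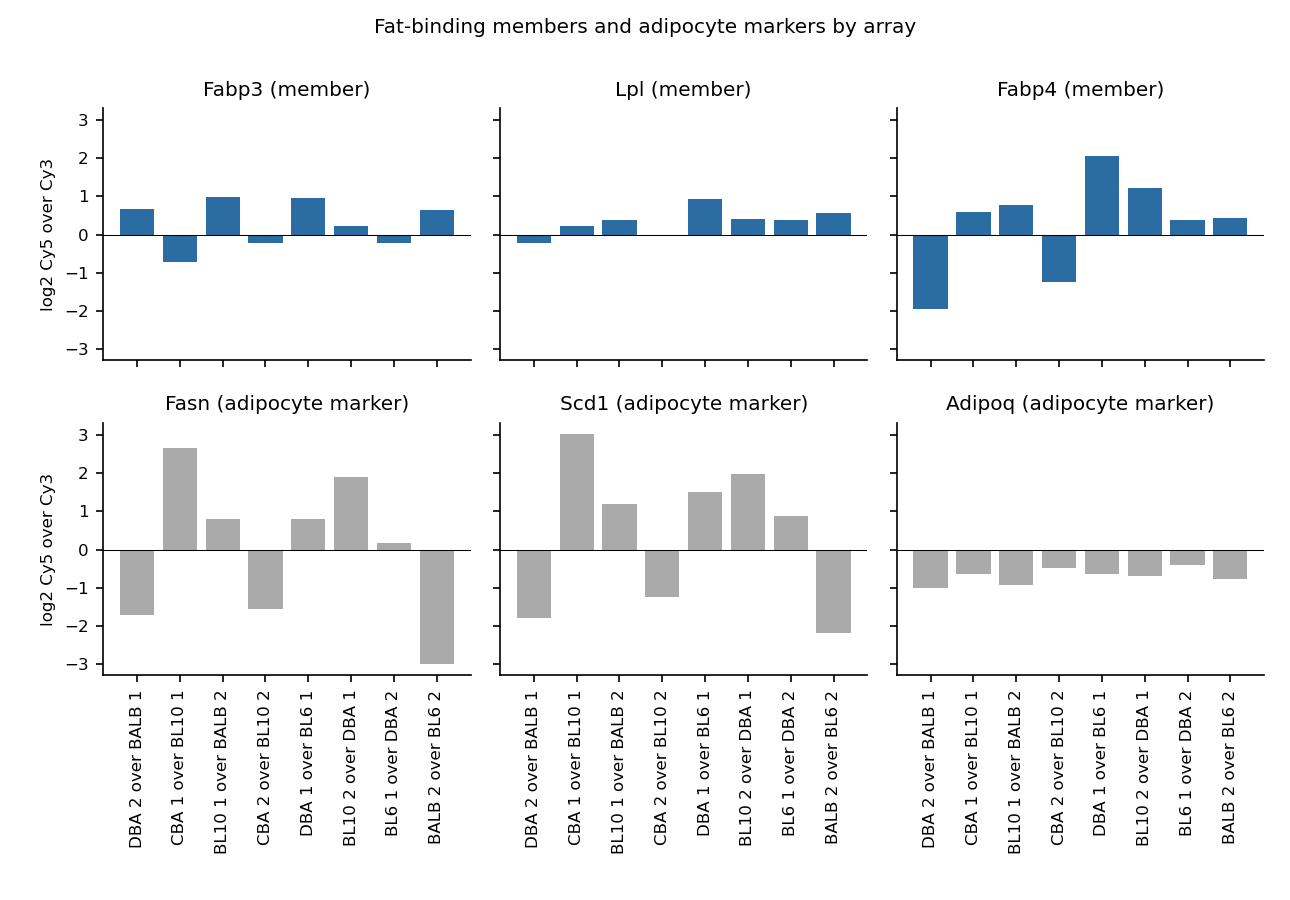
Log2 ratio of Cy5 over Cy3 on each of the 8 arrays for the members Fabp3, Lpl and Fabp4 (blue) and the adipocyte markers Fasn, Scd1 and Adipoq (grey), bars drawn from 0. Fabp4 ranges from −1.96 to 2.06 and Fasn from −2.99 to 2.65, while Adipoq lies below 0 on every array. The ratios include each gene's dye effect, so their signs are not those of strain differences.

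At the pyruvate gate, Pdha1, the E1 alpha subunit of pyruvate dehydrogenase, was highest in CBA at 0.48 and lowest in DBA at −0.24 (adjusted p = 0.326 from limma). Pdha2, its testis form, ranged from −0.23 in BL6 to 0.22 in BL10. Pdk2 and Pdk4, kinases that inactivate the complex, ranged by 0.55 and 0.27 and had adjusted p of 0.635 and 0.646 from limma. Pdk4 read below 0 on all 8 arrays, from −1.42 to −0.64. Its fitted dye effect was −1.06, so these signs are not those of strain differences, and its strain levels stayed between −0.11 and 0.17.

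Pkmyt1, the kinase taken in by its symbol, stood at 1.02 in CBA, 0.62 in BL10, −0.17 in BALB, −0.26 in DBA and −1.21 in BL6. BL6 was below the mean of the other 4 strains by a log2 difference of −1.52 (SE 0.15, adjusted p = 0.0217 from limma). Its spots were 3.18 apart on the BL6 1 over DBA 2 array. Counting it with the sugar members raised the calls between BALB and BL6 from 3 to 4.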

How the data were processed

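RNA of quadriceps muscle (1 µg of each animal) was labelled and hybridised to spotted oligonucleotide arrays with 2 dyes. The authors read the spots in GenePix Pro, removed local background and applied VSN. What they deposited is the natural log of Cy5 over Cy3 for each spot. That scale and direction were inferred from the method and the dye labels. Here 15552 spots were converted to log2, duplicate spots averaged to 7776 features, 80 control features of Gapdh averaged to 1, and each array centred on its median.

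limma 3.58.1 in R 4.3.3 (MASS 7.3.60.0.1) fitted strain and gene-wise dye terms on 8 arrays. The covariance of arrays sharing an animal took the animal variance as 0.446 times the array variance for every feature (restricted maximum likelihood). There were 3 residual and 6.13 prior degrees of freedom. Adjusted p-values are Benjamini-Hochberg over 7697 features. Probe names came from the platform annotation, and RefSeq GRCm38.p6 gave positions. The samples of a strain are separate animals, 2 each. Dim spots cannot be told from bright ones in these ratios, so the precision rests on the number of arrays. Plots used matplotlib 3.10.9 under Python 3.11.15. The fit was also run on data simulated from its own model, which cannot show that this model suits the arrays.

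Described in full are members called in any comparison, the 6 sugar and 6 fat members with the smallest p between strains, and the muscle forms, with a few others chosen after their values were seen. The printed promoters were also chosen then. The planned sugar list took every symbol beginning with Pkm, which includes Pkmyt1. It was set apart once its values were seen because it is no fuel gene, and counting it as sugar is an alternative. Members and lists were chosen with earlier results of these data known. The alternatives were other uses of the identical arrays, no centring, quantile normalization, either spot alone, no dye term, independent arrays, unmoderated and robust tests, an FDR of 5%, other member lists and leaving out each animal.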

Additional observations from a re-analysis of the deposited data

How the results depend on the processing

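The 15 of 17 fat members below 0 in BL6 ranged from 10 (without BALB 1) to 15 over all alternatives, and the 12 of 16 muscle sugar forms higher in BALB than in BL6 from 9 (without BALB 1) to 14. These, the BALB and BL6 calls and the values with Pkmyt1 counted as sugar were added after seeing the data. The 3 sugar calls between BALB and BL6 became 0 with all 10 arrays as labelled, with the first spot alone, with no dye term and with the ordinary test, and 5 with the second spot alone. Leaving out 1 animal gave 0 (without BALB 1) to 20 (without BALB 2), and for fat 0 to 7. Without DBA 1, BALB 2 or BL6 1 the fit has 1 residual degree of freedom and called 2696 to 3615 features between BALB and BL6, and without BL10 1 or BL10 2, also with 1, it called 226. Eno3 (NM_007933) was called in 7 of 20 alternatives (0.45 to 1.04, adjusted p 0.00801 to 0.747 from limma), Eno2 in 14 (0.17 to 1.29, 0.00345 to 0.671) and Aldoc in 10 (0.39 to 0.94, 0.00312 to 0.861). None changed sign.

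The 8 sugar members at an unadjusted p of 0.05 between strains became 5 with the identical values entered as BALB 1 over CBA 2, 3 with the first spot, 1 with no dye term and 4 with the ordinary test, and 2 to 23 without 1 animal. The 1 fat member became 2 with the identical values entered under either label, no centring, the second spot, independent arrays and the ordinary test, 3 with quantile normalization and 1 to 7 without 1 animal. The 1 member called (Pkmyt1) became 0 with all 10 arrays, either single label, the first spot, no dye term, the ordinary test and an FDR of 5%, 2 with quantile normalization and 0 to 34 without 1 animal.

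The sugar minus fat median of CBA became 0.18 (identical values as BL6 2 over CBA 1), −0.044 (quantile normalization), −0.039 (first spot), −0.29 (no dye term) and 0.25 (muscle forms alone). That of BL6 became 0.42 with no dye term and 0.039 with muscle forms, DBA 0.014 with no dye term, and BALB 0.18 with no dye term and 0.14 with muscle forms. Without 1 animal the ranges were −0.052 to 0.32 in CBA, −0.21 to −0.063 in BL10, 0.082 to 0.32 in BL6, −0.13 to −0.012 in DBA and −0.14 to 0.19 in BALB. The causes were not tested. Without DBA 2 the dye term could not be fitted. No paired analysis was possible because animal numbers do not pair samples across strains.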

Other observations

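Other genes of both routes are given here by their counts. Of 23 further sugar features, 4 passed an unadjusted p of 0.05 between strains (17.4%, against 14% of all features) and none the FDR. Phka1 (X73876), the muscle subunit of phosphorylase kinase that switches on glycogen breakdown, was higher in BALB than in BL6 by 1.25 (SE 0.23, adjusted p = 0.0572 from limma). Its other oligonucleotides gave 0.34 and 0.07. Phkg1, the catalytic subunit of that kinase in muscle, was at 0.61 (adjusted p = 0.101 from limma) and Mpc1, a subunit of the mitochondrial pyruvate carrier, at 0.76 (adjusted p = 0.101 from limma). Slc16a3, the lactate exporter of fast fibres, was at 0.53. In this pair 6 of the 23 were higher in BALB at an unadjusted p of 0.05 and 0 were lower, beside 12.2% and 9.78% of all features.

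Of 29 further fat features, 3 passed between strains (10.3%, below the 14% of all features), namely Mlycd, Cd36 and Rxrg. Cd36, the fatty acid translocase, stood at 0.35 in BALB and −0.38 in CBA, and Rxrg, a nuclear receptor, at 0.31 in CBA and −0.43 in BALB. Between BALB and BL6, 2 were higher in BALB at an unadjusted p of 0.05 and 3 were lower, and none passed the FDR. BL6 was the lowest strain for Ech1, Crat, Eci2, Acsl4, Hsd17b4, Pnpla2 and an Acacb feature. It was the highest for Hsd17b10, Mgll, Ppargc1a, Ehhadh and Acot1.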
